A study of Mus musculus with 28 samples.

Results

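Trichostatin A (TSA), an inhibitor of histone deacetylases, was compared with its vehicle in the hippocampus of cbp+/- mice that were exploring a new environment. The comparison rests on 6 of the 28 arrays of the study: 3 arrays from cbp+/- mice given TSA before novelty, set against 3 arrays from cbp+/- mice given vehicle and the same novelty, joined into 3 pairs by the replicate number of their titles. The treated mice received TSA at 2.4 mg/kg into the peritoneum, entered a box with tubing and toys 15 min later, stayed there for 1 h, and were sampled 75 min after the injection. The reference mice received the DMSO and saline vehicle and the same 1 h of novelty. All mice were 3-month-old females, hybrids of the first generation between C57 and DBA, and all mice of both arms carried 1 disrupted copy of the gene for CBP. Each array held RNA pooled from 3 to 4 hippocampi, so replicate error here means variation from pool to pool. Beside this comparison stand 2 others with no array in common: TSA against vehicle during novelty in wild-type littermates, with 3 arrays each, and TSA against vehicle in cbp+/- mice in the standard cage, with 3 arrays each. Since whole hippocampus was measured, fewer cells of a type and less RNA per cell cannot be told apart.

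CBP is a coactivator that binds CREB and other transcription factors and acetylates histones, and histone deacetylases remove the acetyl groups that CBP and related enzymes place. TSA blocks the zinc-dependent deacetylases, after which some genes are transcribed more and others less. Exploration of a new place induces immediate early genes such as Fos, Arc and Npas4 in hippocampal neurons, and several of these genes are targets of CREB.

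The deposited values are log2 expression values for 35556 transcript clusters, with array medians between 5.46 and 5.63 and values from 2.11 to 14.02. From these, 19938 genes with a symbol were tested, 1315 of them predicted or unnamed genes. The replicate number left a clear mark on these values. After subtraction of the group means, arrays of 1 replicate number correlated at 0.52 to 0.80 (45 pairs of arrays across 6 groups), against -0.63 to -0.07 for arrays of different numbers (90 pairs). A first principal component of these 18 arrays took up 38% of the variance, and 95.6% of it went with the replicate number, against 1.96% with the group. The replicate number therefore entered the fit as a block. The labels do not say what the number stands for. Levels of hippocampal neuron markers varied from gene to gene on the 6 arrays. Camk2a, a kinase of excitatory synapses, lay between 11.46 and 12.24, and Prox1, a marker of dentate granule neurons, between 7.75 and 8.99. Other markers were low on all 6 arrays, such as Tdo2 of dentate granule neurons (3.62 to 4.14) and Lefty1 of CA1 neurons (4.93 to 5.43). Crebbp, the gene for CBP, measured 9.70, 9.66 and 8.97 on the TSA arrays, against 9.38, 9.59 and 9.38 on the vehicle arrays. It is not known here whether its probes fall within the disrupted stretch, so these levels cannot serve as a check of genotype.

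No gene passed an adjusted p of 0.05 for TSA against vehicle in cbp+/- mice during novelty (limma, Benjamini-Hochberg adjustment over all genes; 0 of 19938 genes, 0%). The smallest adjusted p was 0.0536, shared by Plag1 and L3mbtl3. Among the alternatives that left out no replicate, 5 called 1 to 4 genes, from Plag1, L3mbtl3, Wipi1 and Ccne1, while a fit without the replicate block called 0 and gave all 4 genes an adjusted p of 1. At an unadjusted p under 0.05 there were 1055 genes, or 5.29% of those tested, of which 577 (2.89%) were higher after TSA and 478 (2.4%) lower. The corresponding share in wild-type mice during novelty was 9.98% (1989 genes, 0 called). For cbp+/- mice in the standard cage only a fit of 28 arrays without the block was made as the main one, with 1.74% (346 genes, 0 called), and in that same fit cbp+/- mice during novelty had 1.97% (392 genes). The median standard error of a change was 0.11 on the log2 scale and the median unadjusted 95% interval reached 0.22 to either side. Smaller changes could not be told from 0 for a typical gene even without adjustment. The adjusted threshold asked for much larger ones: L3mbtl3, at 0.71 ± 0.11, was not called. An exact sign-flip permutation test over 3 pairs cannot give a two-sided p below 0.25, so the model across all genes is the only test used here. Because no gene was called, the genes below are given by their values.

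Plag1, a zinc finger transcription factor of growth and development, showed the largest difference among the 24 genes of smallest p in either direction. Its log2 level was 6.25, 5.80 and 5.82 on the TSA arrays of replicates 1, 2 and 3, against 5.02, 5.01 and 5.02 on the vehicle arrays. Every TSA array lay above every vehicle array, and the vehicle arrays were almost equal. The difference was 0.94 ± 0.15 (SE, n = 3 pairs; 95% interval 0.64 to 1.25), a 1.92-fold higher level, with an adjusted p of 0.0536 in limma.

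L3mbtl3, an MBT-domain protein that reads methylated lysines, measured 7.71, 8.24 and 8.17 with TSA, against 7.26, 7.20 and 7.52 with vehicle. The groups did not overlap, and the difference of replicate 2 was the widest of the 3. It averaged 0.71 ± 0.11 (interval 0.47 to 0.95, 1.64-fold; limma adjusted p = 0.0536). Wipi1, a phosphoinositide-binding protein of autophagosome formation, measured 7.04, 6.74 and 6.51 with TSA, against 6.31, 6.22 and 6.0 with vehicle. In both arms replicate 1 was the highest and replicate 3 the lowest, and the groups did not overlap. The difference was 0.59 ± 0.10 (interval 0.37 to 0.81; limma adjusted p = 0.116).

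Ccne1, the gene for cyclin E1, which drives entry into DNA replication with a partner kinase, measured 7.96, 7.55 and 7.77 with TSA, against 7.17, 7.02 and 7.40 with vehicle. The lowest TSA array was above the highest vehicle array. The difference was 0.56 ± 0.10 (interval 0.35 to 0.77; limma adjusted p = 0.116). Fgf9, a secreted fibroblast growth factor, stood at 7.99, 7.85 and 7.86 with TSA, against 7.31, 7.18 and 7.58 with vehicle. These groups were also separate, with the narrowest gap in replicate 3, and the difference was 0.54 ± 0.10 (limma adjusted p = 0.229).

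**Figure D1:**
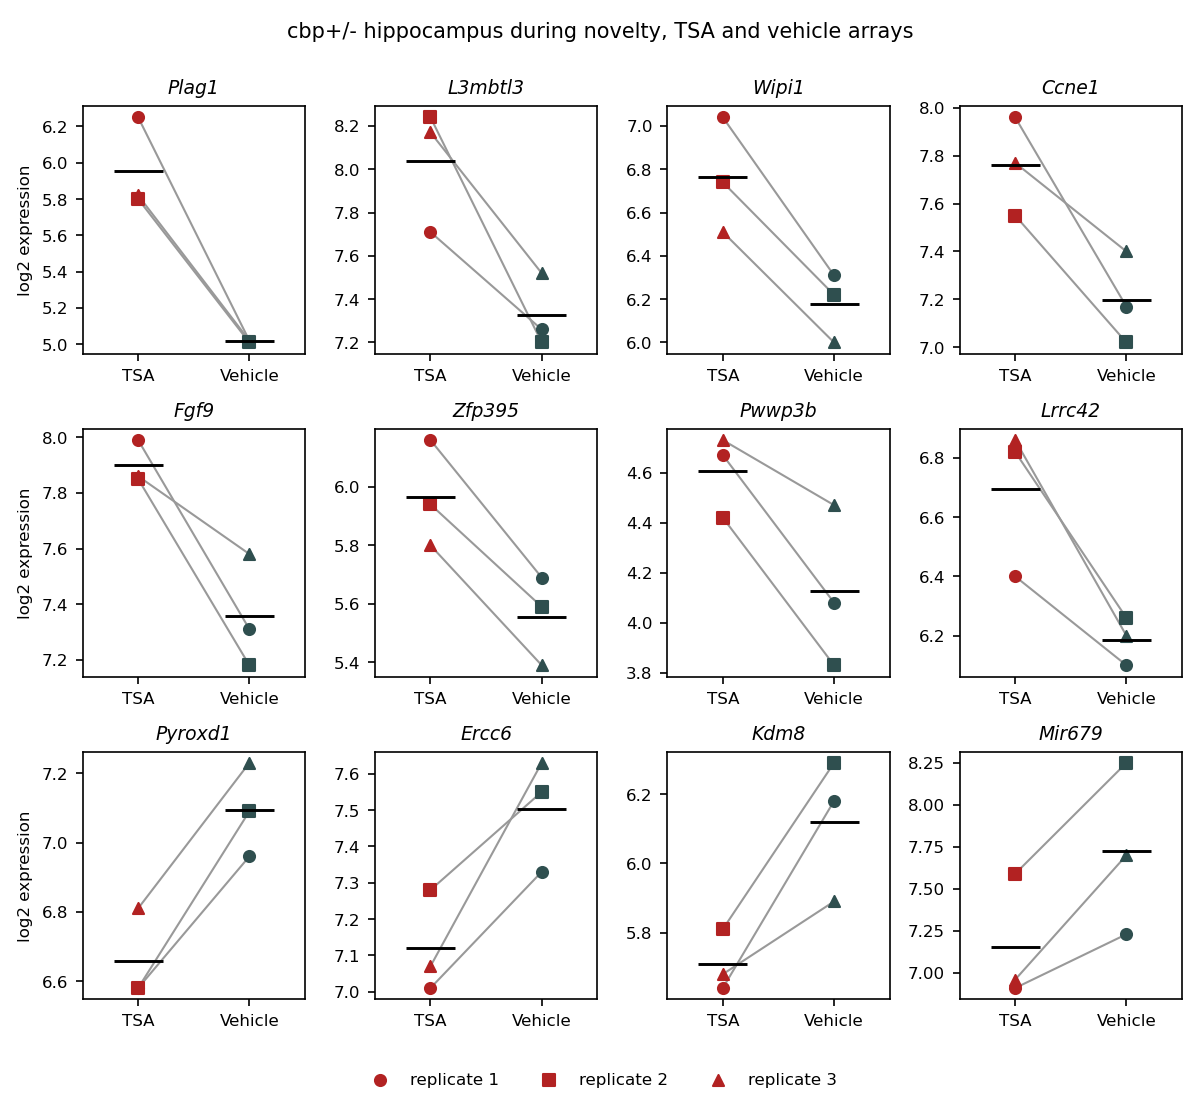
Log2 expression of 12 genes on the 3 TSA arrays and the 3 vehicle arrays from cbp+/- mice during novelty. Marker shapes and grey lines join arrays of 1 replicate number, and black bars are group means. The 8 genes of the upper panels, such as Plag1 (5.80 to 6.25 with TSA, 5.01 to 5.02 with vehicle), and the 4 genes of the lowest row differ in the same direction in all 3 pairs. That was a condition for choosing them.

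The other 7 genes on the higher side of this list had changes of 0.37 to 0.59. Sox11, an HMG-box transcription factor of immature neurons, measured 7.50, 7.34 and 7.21 with TSA, against 6.58, 6.64 and 7.06 with vehicle. The pair of replicate 3 differed by only 0.15, against 0.92 and 0.70 in the others, and the mean was 0.59 ± 0.13 (limma adjusted p = 0.368). Cdc25a, a phosphatase that activates cyclin-dependent kinases, differed by 0.51 ± 0.11, and Bcor, a corepressor found in a variant Polycomb complex, by 0.42 ± 0.09. Ing1, a PHD-finger subunit of the Sin3 deacetylase complex, differed by 0.37 ± 0.08. The leucine-rich repeat gene Lrrc42, the PWWP-domain gene Pwwp3b and the zinc finger gene Zfp395 differed by 0.51 ± 0.11, 0.48 ± 0.10 and 0.41 ± 0.09. For 11 of the 12 genes the TSA and vehicle arrays did not overlap, Pwwp3b being the exception. Among all genes 5.21% had arms that did not overlap (5.76% in wild type), and the 12 genes were picked for small p.

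On the lower side the sizes were smaller. Pyroxd1, an oxidoreductase gene, measured 6.58, 6.58 and 6.81 with TSA, against 6.96, 7.09 and 7.23 with vehicle. The TSA arrays were all below the vehicle arrays, by -0.43 ± 0.10 on average (limma adjusted p = 0.368). Kmt5b, a lysine methyltransferase of histone tails, measured 6.83, 7.52 and 7.34 with TSA, against 7.64, 7.81 and 7.76 with vehicle. Here too the groups were apart, with the lowest value in TSA replicate 1, and the difference was -0.50 ± 0.13 (limma adjusted p = 0.436). Srsf6, an SR protein that guides splice site choice and is named from the list of splicing factors, measured 8.29, 8.38 and 8.56 with TSA, against 8.85, 8.70 and 8.99 with vehicle. The highest TSA array was below the lowest vehicle array, and the difference was -0.44 ± 0.12 (limma adjusted p = 0.440).

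Mir679, a microRNA gene, is described with its neighbours below. The remaining 9 of the 12 genes on this side lay between -0.45 and -0.33. They included Ercc6, a factor of transcription-coupled DNA repair (-0.38 ± 0.09), Kdm8, a Jumonji-domain protein (-0.41 ± 0.10), B9d2, a protein of the ciliary transition zone (-0.44 ± 0.10), and Dguok, a mitochondrial nucleoside kinase (-0.41 ± 0.10). Srsf5, another SR protein, had a change of -0.41 ± 0.10. Srcap, the ATPase of a chromatin remodelling complex, had -0.38 ± 0.10, and Epc2, a subunit of an acetyltransferase complex, had -0.45 ± 0.12. Ankub1 (-0.33 ± 0.08) and the odorant receptor gene Olfr710 (-0.41 ± 0.10), whose levels were low on all 6 arrays (3.74 to 4.30), completed the list. The TSA and vehicle arrays did not overlap for 6 of these 12 genes, which were picked for small p. Among all genes the share was 5.21%.

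Promoters are shown for the first 4 of the higher genes that the RefSeq table (build GRCm38.p6) holds, in order of p. Each sequence runs from 250 bases before to 50 bases after a listed transcription start, 5′ to 3′ on the gene's strand. They lie at chr10:26375170-26375469 (L3mbtl3, minus strand), chr11:109611340-109611639 (Wipi1, minus strand), chr7:38107441-38107740 (Ccne1, minus strand) and chr14:58072436-58072735 (Fgf9, plus strand). Capitals mark 4 motifs on either strand: GGGCGG, the letters bound by Sp-family factors, TGACG, which forms part of the CREB site TGACGTCA, that full site, and CCAAT, the NF-Y site.
L3mbtl3: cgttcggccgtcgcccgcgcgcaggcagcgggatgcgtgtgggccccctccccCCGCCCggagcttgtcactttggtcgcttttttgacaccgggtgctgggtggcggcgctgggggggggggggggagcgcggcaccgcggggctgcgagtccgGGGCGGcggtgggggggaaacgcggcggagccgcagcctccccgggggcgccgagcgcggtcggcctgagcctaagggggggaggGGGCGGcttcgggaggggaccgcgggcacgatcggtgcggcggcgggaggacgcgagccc
Wipi1: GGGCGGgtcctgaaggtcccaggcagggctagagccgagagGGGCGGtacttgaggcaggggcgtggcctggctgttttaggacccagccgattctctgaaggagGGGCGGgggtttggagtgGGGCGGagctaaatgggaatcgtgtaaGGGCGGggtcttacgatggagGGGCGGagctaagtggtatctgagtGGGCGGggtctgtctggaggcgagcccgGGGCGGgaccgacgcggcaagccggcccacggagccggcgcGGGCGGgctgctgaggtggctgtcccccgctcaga
Ccne1: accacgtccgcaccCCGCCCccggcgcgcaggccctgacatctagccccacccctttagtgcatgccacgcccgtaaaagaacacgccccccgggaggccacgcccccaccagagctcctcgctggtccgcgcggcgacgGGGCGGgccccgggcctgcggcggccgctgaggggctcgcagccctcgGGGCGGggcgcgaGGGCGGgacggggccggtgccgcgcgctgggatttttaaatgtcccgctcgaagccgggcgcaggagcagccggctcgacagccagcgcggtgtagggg
Fgf9: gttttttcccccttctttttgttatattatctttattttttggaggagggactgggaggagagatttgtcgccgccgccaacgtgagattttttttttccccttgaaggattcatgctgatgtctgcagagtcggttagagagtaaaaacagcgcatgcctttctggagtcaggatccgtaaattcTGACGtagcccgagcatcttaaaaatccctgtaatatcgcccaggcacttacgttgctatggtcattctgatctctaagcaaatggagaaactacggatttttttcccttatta

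The first 3 promoters are rich in G and C (79.3%, 69.0% and 76.0%) and hold 3, 9 and 4 copies of GGGCGG. The Fgf9 promoter holds 42.7% G and C, no GGGCGG and 1 copy of TGACG. Promoters were found for 10 of the 12 higher genes. GGGCGG occurred in 8 of the 10, against 49.9% of all 15614 promoters of this length in the table, and TGACG in 2 of 10, against 25.4%. TGACGTCA occurred in 0 of 10 (2.49% of all) and CCAAT in 2 of 10 (38.2%). Over all promoters the median G and C content was 57.7%. These counts describe letters in a window and were not tested.

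A second way to describe the response does not use p. It takes genes with the same sign in all 3 pairs and a mean change of at least 0.5 log2. During novelty in cbp+/- mice 28 genes met it (0.14% of all), 22 higher (0.11%) and 6 lower (0.0301%), while 66 genes (0.331%) met it in wild-type mice. Besides the genes above, the higher side held Rspo3, a secreted enhancer of Wnt signalling, with 0.49, 0.59 and 0.58 in the 3 pairs. It also held Arid5b, a DNA-binding protein of chromatin complexes (0.67, 0.69 and 0.21). H1f5, a linker histone gene, had 0.82, 0.31 and 0.49, and Prokr2, the prokineticin receptor gene, 1.05, 0.14 and 0.41. Of the 6 genes on the lower side, 5 lie in a single imprinted region that is described below, and the other was Kmt5b.

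Across all genes the 3 pairs shared little. The changes of pairs 1 and 2 correlated at r = 0.19 over 19938 genes, those of pairs 1 and 3 at -0.02 and those of pairs 2 and 3 at -0.03. In wild type the corresponding values were 0.26, 0.19 and 0.21. These are descriptions across genes that share arrays, and genes are not independent replicates. The same sign in all 3 pairs was found for 5158 genes (25.9%) in cbp+/- mice, with 2405 positive (12.1%) and 2753 negative (13.8%), and for 36.6% of genes in wild type. A positive mean change was found for 46.6% of genes in cbp+/- mice and 58.9% in wild type. The standard deviation of the mean change over genes was 0.12 in cbp+/- and 0.14 in wild type.

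Immediate early genes, which novelty induces, were not among the leading genes. All gene lists here and below were drawn up with earlier results of these data known, so their counts are not independent support. Of 25 measured transcription factors of this class, 19 had a negative change with TSA, against 10649 of all 19938 genes. Their median was -0.08, against -0.01 over all genes. None was higher at an unadjusted p under 0.05 and 2 (8%) were lower, against 2.89% and 2.4% of all genes. These 2 shares apply to every list below in the same fit. The 2 were Klf10 (-0.40 ± 0.13), a zinc finger factor, and Maff (-0.25 ± 0.12), a small Maf protein. Without the pair of replicate 3 the lower count was 5 of 25 (3.58% of all genes) and the median -0.12. Without TSA replicate 3 alone it was 4 of 25 (3.04% of all genes), with a median of -0.03.

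Fos, a subunit of the AP-1 factor, measured 6.47, 6.62 and 6.75 with TSA, against 7.19, 6.89 and 6.54 with vehicle. The groups overlapped: replicates 1 and 2 were lower with TSA and replicate 3 was higher. The difference was -0.26 ± 0.20 (interval -0.67 to 0.16; limma adjusted p = 1). Npas4, a neuronal activity-dependent factor, measured 7.87, 7.12 and 6.90 with TSA, against 7.59, 7.57 and 6.99 with vehicle. Its pairs also differed in sign, and the mean was -0.08 ± 0.13 (interval -0.35 to 0.18; limma adjusted p = 1). For these genes an increase by TSA of 0.2 log2 or more lay outside the 95% interval, while a lower level by 0.3 log2 lay inside it.

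Egr1, a zinc finger factor of synaptic plasticity, measured 9.07, 8.27 and 8.26 with TSA, against 8.95, 8.50 and 8.14 with vehicle. The arms covered much the same range, and the difference was 0.00 ± 0.12 (interval -0.26 to 0.26). Its relative Egr2 measured 7.31, 6.59 and 6.98 with TSA, against 7.93, 6.99 and 6.82 with vehicle. Replicates 1 and 2 were lower with TSA and replicate 3 was higher, by -0.29 ± 0.15 on average (limma adjusted p = 1). Nr4a1, an orphan nuclear receptor, differed by -0.08 ± 0.14.

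**Figure D2:**
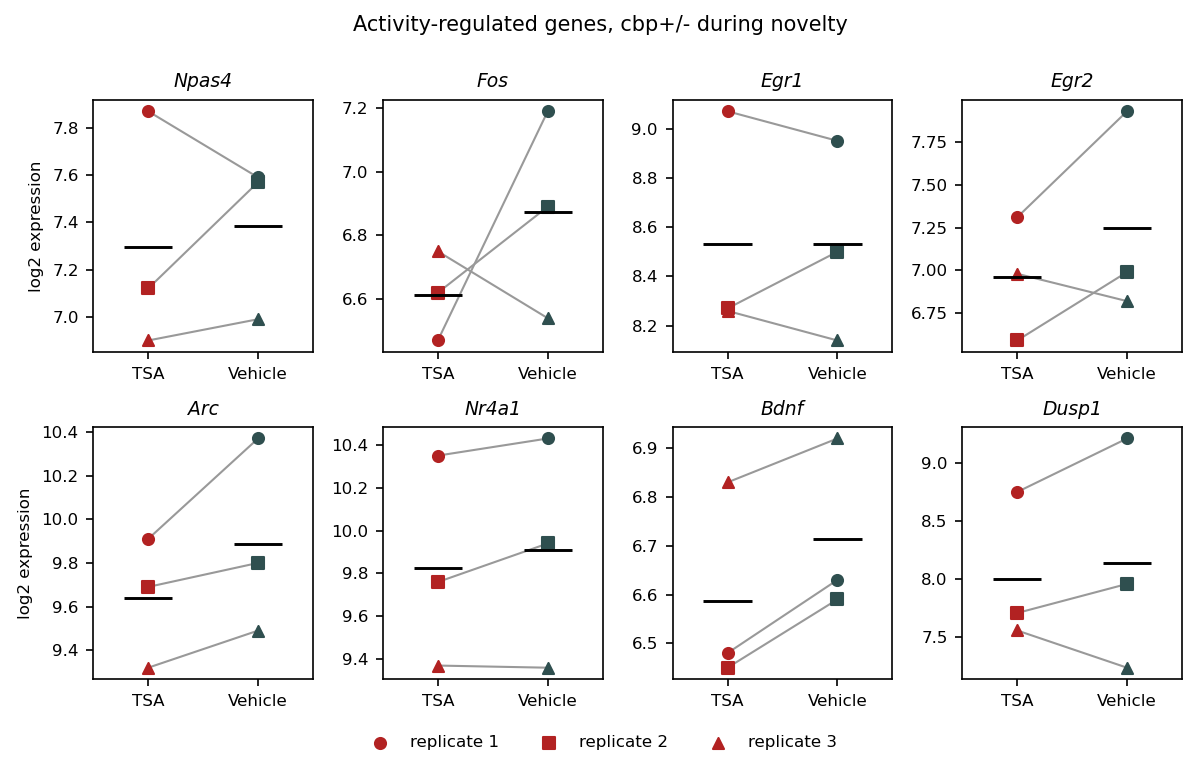
Log2 expression of 8 activity-regulated genes on the 3 TSA arrays and the 3 vehicle arrays from cbp+/- mice during novelty, with lines joining arrays of 1 replicate number and black bars at group means. The arms overlap in every panel. Arc and Bdnf were lower with TSA in all 3 pairs, by -0.25 ± 0.12 and -0.13 ± 0.09, and neither passed the threshold.

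Among 34 activity-induced effector genes, 28 had a negative change (median -0.07), against 10649 of all 19938 genes. None passed an unadjusted p of 0.05 in either direction. Arc, a cytoskeletal protein of the postsynapse, measured 9.91, 9.69 and 9.32 with TSA, against 10.37, 9.80 and 9.49 with vehicle. Each TSA array was below its own vehicle array, yet the arms overlapped, and the difference was -0.25 ± 0.12 (interval -0.50 to 0.00; limma adjusted p = 0.958). Bdnf, a growth factor of neurons, measured 6.48, 6.45 and 6.83 with TSA, against 6.63, 6.59 and 6.92 with vehicle. Its 3 pairs differed by a similar small amount, -0.13 ± 0.09 on average. Dusp1, a phosphatase of MAP kinases, differed by -0.13 ± 0.23, with pairs of -0.45, -0.25 and 0.31. Without TSA replicate 3 or 2, the number of these 34 genes with a positive change was 10 or 11, against 6 with all arrays.

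Corepressor complexes are the assemblies in which deacetylases work. Of 27 measured corepressor subunits, 20 had a positive change and 13 were positive in all 3 pairs (46.6% and 12.1% of all genes). At an unadjusted p under 0.05, 7 of 27 were higher and 0 lower, against 2.89% and 2.4% of all genes. The median change was 0.10. Rest, the repressor that silences neuronal genes outside neurons, measured 6.24, 5.75 and 5.30 with TSA, against 5.59, 5.35 and 4.85 with vehicle. The arms overlapped, with replicate 1 highest and replicate 3 lowest in both, while each pair differed by 0.40 to 0.65 (0.50 ± 0.13; limma adjusted p = 0.44). Sin3a, the scaffold of the Sin3 complex, measured 8.11, 7.92 and 7.44 with TSA, against 7.27, 7.43 and 7.38 with vehicle. Here replicate 3 differed by only 0.06 and replicate 1 by 0.84, with a mean of 0.46 ± 0.13.

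The other members were the CoREST genes Rcor1 (0.33 ± 0.10) and Rcor2 (0.34 ± 0.10), which link Rest to deacetylases, the methyl-CpG reader Mbd2 (0.24 ± 0.10), Tbl1x of the NCoR complex (0.25 ± 0.09) and Ing1. The count was 8 of 27 without TSA replicate 3 (4.29% of all genes) and 8 of 27 without TSA replicate 2 (2.58% of all genes). By pair the median change was 0.19, 0.11 and -0.03. In wild type, 7 of 27 were higher and 0 lower, with a median of 0.11, where 6.04% of all genes were higher, 3.94% lower and the median of all genes was 0.03.

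Of 11 genes for the deacetylases themselves, 1 was higher at an unadjusted p under 0.05 and 0 lower, with a median change of -0.01. Hdac1, a class I deacetylase of the Sin3, NuRD and CoREST complexes, measured 8.38, 8.44 and 8.67 with TSA, against 8.20, 8.02 and 8.32 with vehicle. All TSA arrays were above the vehicle arrays, by 0.32 ± 0.09 (limma adjusted p = 0.522). Its paralog Hdac2 differed by -0.07 ± 0.15, with pairs of both signs, and Hdac3 by 0.00 ± 0.10 (interval -0.21 to 0.21).

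Of 32 measured subunits of acetyltransferase complexes, 22 had a negative change, against 10649 of all 19938 genes, and the median was -0.05. At an unadjusted p under 0.05, 4 were lower and 1 higher, against 2.4% and 2.89% of all genes. By pair the median was 0.04, 0.02 and -0.20. Without the pair of replicate 3, 3 were higher and 3 lower (4.42% and 3.58% of all genes), 16 of 32 were positive and the median was -0.01. The 4 were Epc2, the PHD-finger subunits Ing3 (-0.24 ± 0.10) and Ing5 (-0.31 ± 0.13), and the scaffold Brpf3 (-0.36 ± 0.11). The other was Hat1, an acetyltransferase of newly made histones (0.29 ± 0.12). Without TSA replicate 2, 7 were lower and 0 higher (1.98% and 2.58% of all genes). Without TSA replicate 3, 3 were lower and 2 higher (3.04% and 4.29% of all genes). Crebbp (-0.01 ± 0.12) and its paralog Ep300 (-0.02 ± 0.11) had pairs of opposite sign, 0.32, 0.07 and -0.41 for Crebbp and 0.27, 0.07 and -0.40 for Ep300. Among 12 genes of the CREB family and its coactivators the median was -0.03, and Creb3l1, Creb3l2 and Atf1 had unadjusted p under 0.05, with 0.37 ± 0.13, 0.36 ± 0.13 and -0.24 ± 0.10.

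Of 34 Polycomb and MBT-domain genes (median 0.07), 6 were higher and 0 lower at an unadjusted p under 0.05, against 2.89% and 2.4% of all genes. L3mbtl3 led them, followed by Sfmbt2 (0.39 ± 0.11), a member of the same MBT family, and Jarid2 (0.31 ± 0.12), a cofactor of Polycomb repressive complexes. Sfmbt2 measured 5.28, 5.83 and 5.84 with TSA, against 5.25, 5.28 and 5.24 with vehicle. Only replicates 2 and 3 were clearly apart, by 0.55 and 0.60, against 0.03 in replicate 1. Without TSA replicate 2 the counts were 3 higher and 1 lower (2.58% and 1.98% of all genes). Without TSA replicate 3 they were 5 and 2 (4.29% and 3.04% of all genes). Among 38 lysine methyltransferases and demethylases, 2 were higher and 2 lower, and the median was 0.00. Without the whole pair of replicate 3 these counts were 7 and 1, against 4.42% and 3.58% of all genes.

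The list of developmental regulators was drawn up with earlier results of these data known, so its counts are not independent support. Its median was 0.04, and most of the list stayed near the median of all genes. At an unadjusted p under 0.05, 8 of 27 were higher and 0 lower, against 2.89% and 2.4% of all genes. Besides Plag1, Sox11 and Fgf9 these were Mex3a (0.46 ± 0.13), an RNA-binding protein, Dact1 (0.41 ± 0.15), a modulator of Wnt signalling, the erythropoietin receptor gene Epor (0.34 ± 0.14), Sox4 (0.31 ± 0.14), the close relative of Sox11, and Plagl1 (0.29 ± 0.13), a relative of Plag1. The count was 9 of 27 without TSA replicate 3 (4.29% of all genes) and 7 of 27 without TSA replicate 2 (2.58% of all genes). In wild type, 7 of 27 were higher and 0 lower, against 6.04% and 3.94% of all genes.

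Genes of the transition into DNA replication had a median of 0.11. Of 29 measured, 23 had a positive change (46.6% of all genes). At an unadjusted p under 0.05, 7 were higher and 0 lower, against 2.89% and 2.4% of all genes. Members of the activating side were Ccne1, Cdc25a, Ccne2 (0.29 ± 0.10), Ccnd3 (0.30 ± 0.12), Cdk2 (0.24 ± 0.10) and Cdk6 (0.25 ± 0.11). The remaining one, Cdkn1b (0.24 ± 0.09), encodes the inhibitor p27 and acts in the opposite sense. Without TSA replicate 2 the count was 3 of 29 (2.58% of all genes) and the median 0.07. Without TSA replicate 3 the count was 7 of 29 (4.29% of all genes). In wild type, 9 were higher and 2 lower, with a median of 0.14, against 6.04%, 3.94% and 0.03 for all genes.

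Splicing factors of the SR class and their kinases had a median of -0.05. At an unadjusted p under 0.05, 5 of 16 were lower and 0 higher, against 2.4% and 2.89% of all genes. The 5 were Srsf5, Srsf6, Srsf4 (-0.26 ± 0.09) and the kinases Clk1 (-0.27 ± 0.10) and Clk4 (-0.22 ± 0.11), which phosphorylate SR proteins. Clk1 differed by -0.29, -0.22 and -0.31 in the 3 pairs. The lower count was 4 of 16 without TSA replicate 3 (3.04% of all genes) and 5 of 16 without TSA replicate 2 (1.98%). It was 2 of 16 without the whole pair of replicate 3 (3.58%). In wild type it was 5 of 16 (3.94%), with a median of -0.09. A fit without the replicate block left 4 corepressor, 4 developmental, 3 Polycomb and 3 replication genes on the higher side, and 2 splicing and 0 acetyltransferase genes on the lower side, against 0.647% and 0.627% of all genes.

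**Figure D3:**
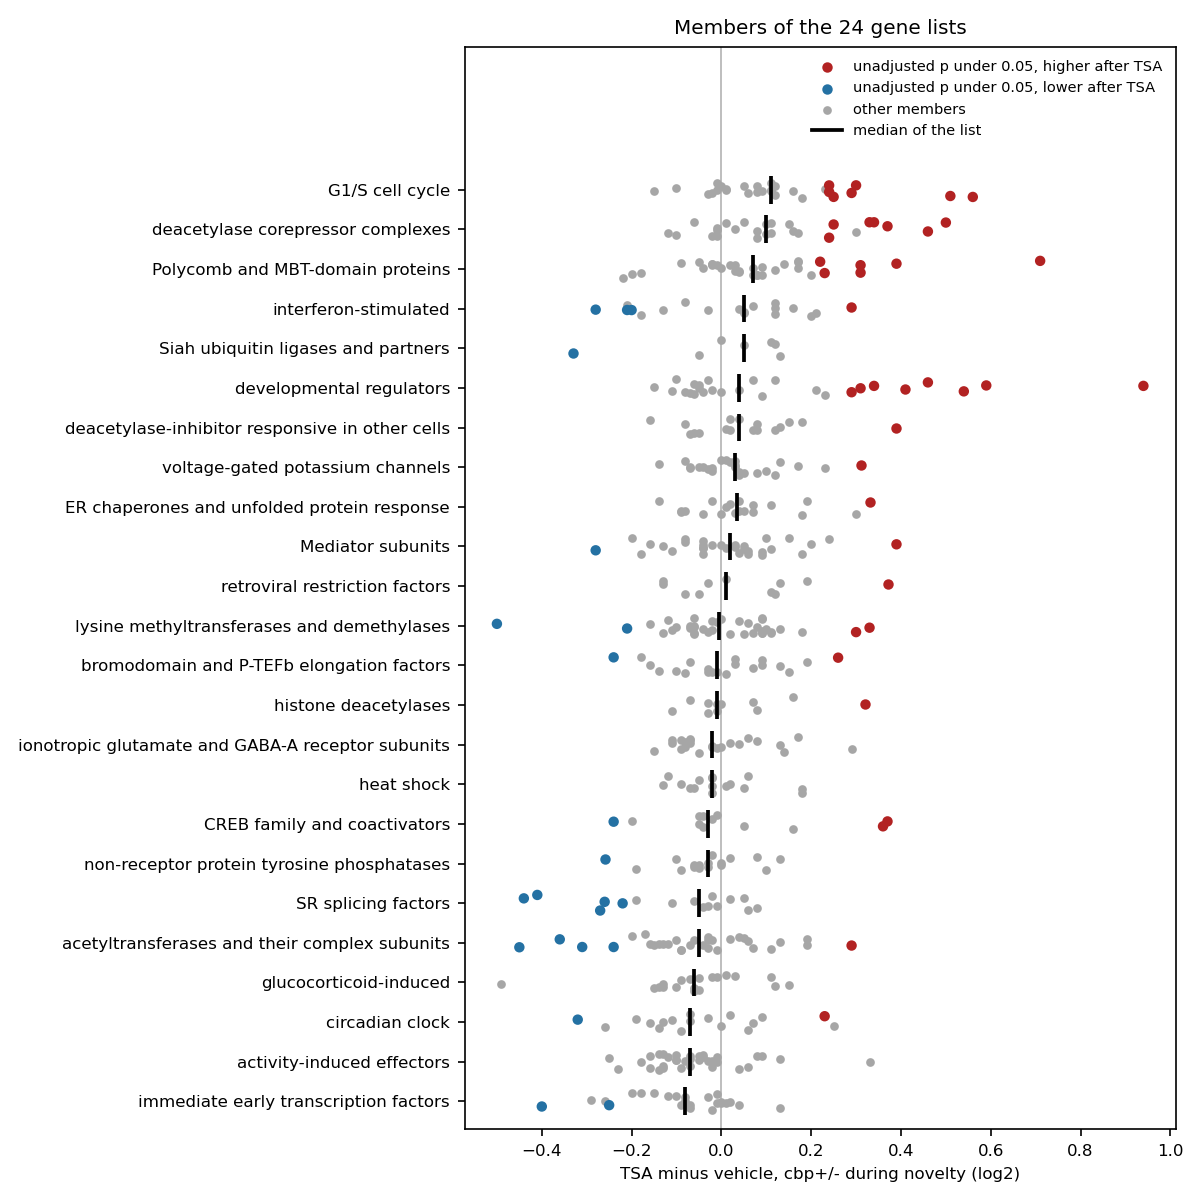
TSA minus vehicle in cbp+/- mice during novelty (log2) for the measured members of 24 gene lists, sorted by list median (black bars). Red and blue points have an unadjusted p under 0.05 in the higher and lower direction, and no point passed an adjusted p of 0.05. Medians ran from -0.08 in immediate early transcription factors to 0.11 in the G1/S list, against -0.01 over all genes.

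Genes reported to respond to deacetylase inhibitors in other cells held 1 of 17 higher, Bcl2l11 (0.39 ± 0.14), a promoter of apoptosis, and 0 lower. Cdkn1a, H1f0 and Hspa1b, also on that list of 20, were not among the genes tested, so nothing is known here of their response. Among stress-related lists, heat shock genes had 0 of 16 and glucocorticoid-induced genes 0 of 19 in either direction. Chaperones of the endoplasmic reticulum had 1 of 20 higher, Creld2 (0.33 ± 0.09), which measured 7.50, 7.48 and 7.74 with TSA, against 6.99, 7.30 and 7.43 with vehicle, in separate groups. Interferon-stimulated genes held 1 of 19 higher, the RNA sensor gene Ddx58 (0.29 ± 0.11), and 3 lower, Ifit1 (-0.28 ± 0.12), Ifit2 (-0.20 ± 0.08) and Mx2 (-0.21 ± 0.10). Without TSA replicate 2 none of them was lower at that level.

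Genes of neuronal excitability showed few differences. Ionotropic glutamate and GABA-A receptor subunits had 0 of 23 in either direction and a median of -0.02. Voltage-gated potassium channels had 1 of 25, the modulatory subunit gene Kcng1 (0.31 ± 0.10), with a median of 0.03. Of 18 circadian clock genes, Cry1 (0.23 ± 0.10) was higher and Nr1d2 (-0.32 ± 0.09), a nuclear receptor that represses clock genes, was lower. Nr1d2 measured 8.98, 8.62 and 8.70 with TSA, against 9.20, 9.04 and 9.03 with vehicle, and the groups did not overlap. Among 32 Mediator subunits, Med22 (0.39 ± 0.10) was higher and Med11 (-0.28 ± 0.13) lower. Of 21 bromodomain and elongation genes, Aff1 (0.26 ± 0.12) was higher and Larp7 (-0.24 ± 0.11) lower. In 3 further lists a single gene passed an unadjusted p of 0.05. They were Fv1 (0.37 ± 0.13) of 11 retroviral restriction factors, Siah1b (-0.33 ± 0.13) of 7 Siah ubiquitin ligases and partners, and Ptpn2 (-0.26 ± 0.11) of 17 tyrosine phosphatases.

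Most of the leading genes had the same sign in wild-type littermates. All 12 of the higher genes had a positive change in wild type, 8 of them with an unadjusted p under 0.05 (6.04% of all genes were higher at that level). Of the 12 lower genes 10 had a negative change in wild type, 9 of them with an unadjusted p under 0.05 (3.94% of all genes were lower). The exceptions were Mir679 (0.02 ± 0.13) and Olfr710 (0.03 ± 0.10). Both comparisons share 1 estimate of the spread per gene. Genes picked for a small p in cbp+/- mice thus tend to have a small standard error in wild type. The counts in wild type are therefore not independent support. Plag1 measured 5.99, 5.90 and 6.12 with TSA, against 5.23, 4.85 and 5.28 with vehicle, in wild-type mice. The arrays were apart as in cbp+/- mice, by 0.88 ± 0.15 (limma adjusted p = 0.0696), and the difference between the genotypes was 0.06 ± 0.21 (interval -0.38 to 0.49). L3mbtl3 differed by 0.59 ± 0.11 and Ccne1 by 0.51 ± 0.10 in wild type.

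No gene passed an adjusted p of 0.05 for a difference between the genotypes in their response to TSA during novelty (limma; 0%, smallest adjusted p 0.758; 883 genes, 4.43%, at an unadjusted p under 0.05, with 1.23% higher and 3.19% lower in cbp+/- mice). That split, 246 genes higher and 637 lower, became 408 and 388 with quantile normalization repeated. Of the 24 leading genes, 4 had an unadjusted p under 0.05 for this difference, Wipi1, Lrrc42, Mir679 and Olfr710. Wipi1 measured 6.75, 6.47 and 6.67 with TSA in wild type, against 6.54, 6.56 and 6.45 with vehicle. Those arms overlapped and differed by 0.11 ± 0.10, so that the change in cbp+/- mice was larger by 0.47 ± 0.15 (interval 0.16 to 0.78; limma adjusted p = 0.976). Lrrc42 differed by 0.17 ± 0.11 in wild type, 0.34 ± 0.16 less than in cbp+/- mice. Mir679 and Olfr710 differed between the genotypes by -0.59 ± 0.19 and -0.44 ± 0.14 (limma adjusted p = 0.976 for each). All 4 genes were picked for their change in cbp+/- mice, which favours a larger value there.

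In cbp+/- mice kept in the standard cage, all 12 of the higher genes had a positive change with TSA and 10 of the 12 lower genes a negative one. At an unadjusted p under 0.05 there were 8 and 2 of them, against 0.787% and 0.948% of all genes in these directions. The fit behind these counts pooled the spread of each gene over all arrays of the study. Those include the novelty arrays by which the 24 genes were picked, so the counts are not independent support. Sox11 differed by 0.71 ± 0.15 in the cage and Kmt5b by -0.56 ± 0.14. Plag1 averaged 5.95 ± 0.27 with TSA and 5.49 ± 0.12 with vehicle in the cage (SD, n = 3 each), a difference of 0.46 ± 0.17. During novelty it averaged 5.96 ± 0.26 with TSA and 5.01 ± 0.00 with vehicle, so that the housings were further apart in the vehicle mean than in the TSA mean. The change during novelty exceeded that in the cage by 0.48 ± 0.25 (interval -0.03 to 1.00; limma adjusted p = 1). At an unadjusted p under 0.05 this difference between housings was found for 1 of the 24 genes, Olfr710, and no gene passed the threshold (0%; 122 genes, 0.612%, at an unadjusted p under 0.05). A further fit used array set as a block. The labels name no such sets, which were built with earlier results of these data known. They join the cage vehicle arrays, in order of number, to the arrays of replicate numbers 1 to 3. The arrays titled naive form a set of their own. In that fit the difference of Plag1 was 0.48 ± 0.18. An unadjusted p under 0.05 was found for 10 of the 24 genes, against 2.53% of all genes, with 0 called. The 24 genes were picked for their change during novelty, which favours a larger value there.

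**Figure D4:**
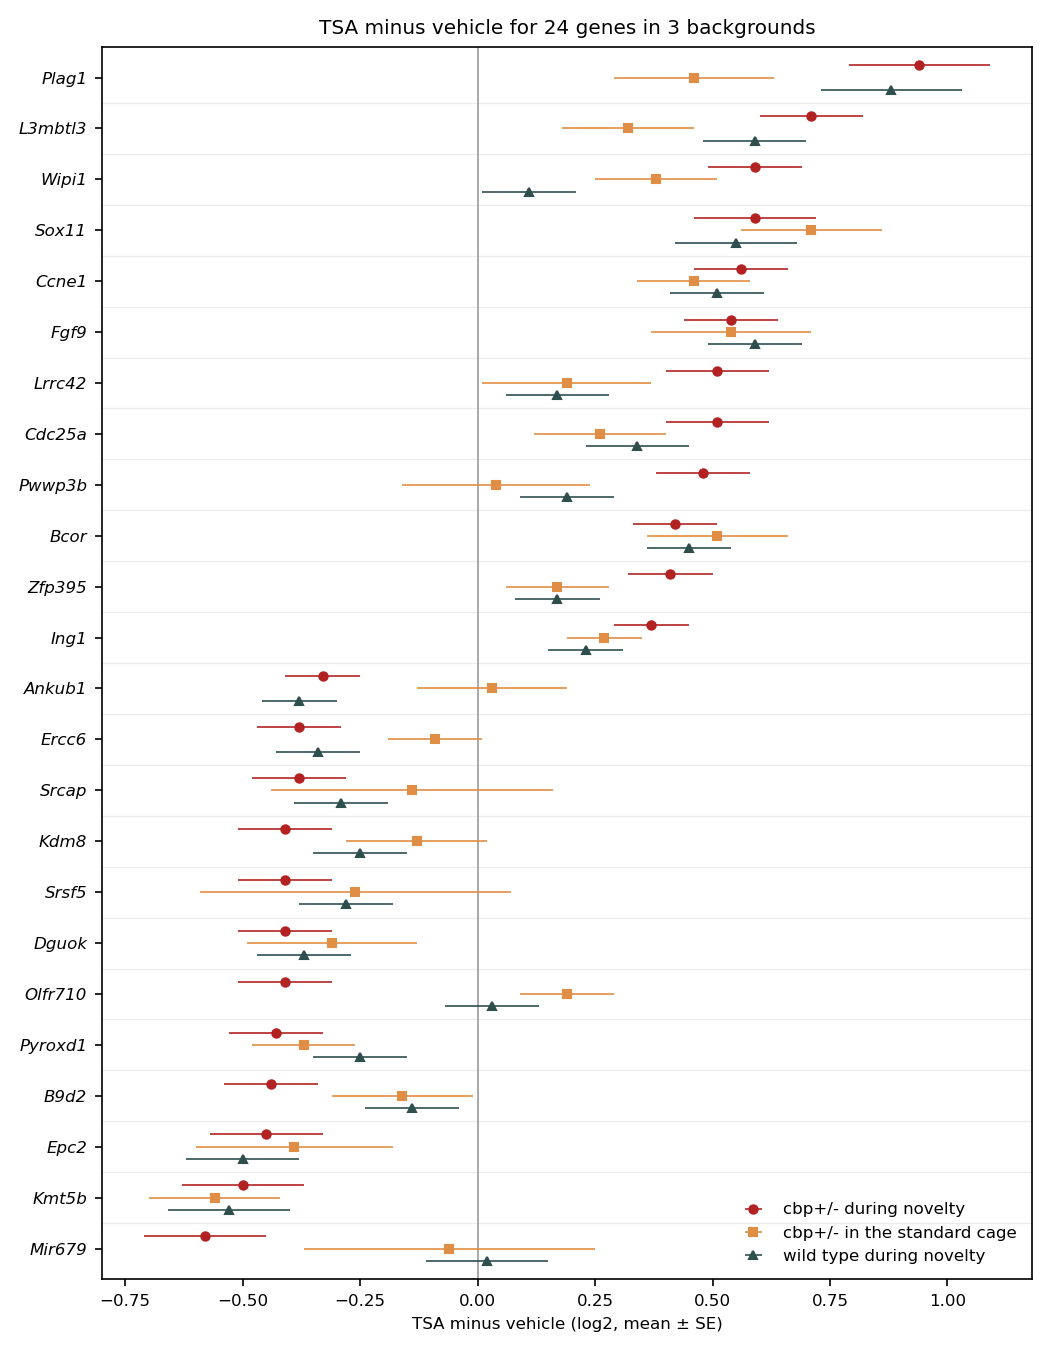
TSA minus vehicle (log2, mean ± SE) of the 24 leading genes, each mean from 3 TSA and 3 vehicle arrays. Circles are cbp+/- mice during novelty, squares cbp+/- mice in the standard cage and triangles wild-type mice during novelty. The SE of circles and triangles pools the spread over the arrays of the paired fit, with the replicate block. That of squares pools it over all arrays of the study without a block, so their bar lengths cannot be compared with the others. The genes were chosen by the circles. The triangles lie on the same side of 0 as the circles for all but Mir679 (0.02 ± 0.13) and Olfr710 (0.03 ± 0.10), and the squares for all but Ankub1 (0.03 ± 0.16) and Olfr710 (0.19 ± 0.10).

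Over all genes, the mean changes of cbp+/- and wild-type mice during novelty correlated at r = 0.22, with the same sign in 54.2% of 19938 genes. Those of cbp+/- mice during novelty and in the cage correlated at r = 0.35. Of the 28 genes with a change of at least 0.5 log2 and 1 sign in all pairs, 13 also met this in wild type, which is 46.4% of the cbp+/- genes and 19.7% of the 66 wild-type genes.

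The lower side of the comparison also held a cluster of neighbours, which was noticed after the values had been seen. The imprinted region between Dlk1 and Dio3 on chromosome 12 holds long noncoding RNA genes, small nucleolar RNA genes and many microRNA genes, which are read as a chain from the maternal chromosome. Of its 48 measured genes, 46 had a negative change with TSA in cbp+/- mice, 29 of them in all 3 pairs and 0 positive in all 3 pairs. Among all genes 10649 of 19938 had a negative change, with 13.8% negative and 12.1% positive in all 3 pairs. The median change was -0.26, with -0.18, -0.29 and -0.32 in pairs 1, 2 and 3. Neighbours in this chain share transcripts and are not independent, and the region was picked for its direction, so no test is given.

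Rian, a long noncoding RNA of the region, measured 6.34, 7.72 and 7.50 with TSA, against 7.40, 7.92 and 7.88 with vehicle. Each TSA array lay below its pair, the first by 1.06, and the arms overlapped. The mean change was -0.55 ± 0.20. Mir341 measured 8.18, 9.12 and 8.13 with TSA, against 8.48, 9.43 and 8.44 with vehicle. Its level was highest in replicate 2 of both arms, and the pairs differed by a near constant amount, -0.31 ± 0.11 on average. Mir679 measured 6.91, 7.59 and 6.96 with TSA, against 7.23, 8.25 and 7.70 with vehicle. Replicates 2 and 3 differed most, and the mean change was -0.58 ± 0.13.

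The mature microRNAs of the 3 microRNA genes of the region that differed by at least 0.5 log2 are printed from the RefSeq table (build GRCm38.p6, plus strand of chromosome 12), since they show which target seeds the genes encode. Capitals mark the seed, bases 2 to 8. Mir380 yields the pair at chr12:109711806-109711827 and chr12:109711842-109711863, Mir679 the pair at chr12:109715587-109715608 and chr12:109715624-109715645, and Mir300 the pair at chr12:109724318-109724339 and chr12:109724363-109724384.
mmu-miR-380-5p: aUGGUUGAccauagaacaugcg
mmu-miR-380-3p: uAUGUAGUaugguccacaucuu
mmu-miR-679-5p: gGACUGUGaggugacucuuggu
mmu-miR-679-3p: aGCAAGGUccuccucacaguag
mmu-miR-300-5p: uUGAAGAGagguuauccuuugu
mmu-miR-300-3p: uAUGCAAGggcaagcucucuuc

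The 6 sequences have 6 different seeds. No source at hand says whether the array probes read the mature RNA or its precursor.

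**Figure D5:**
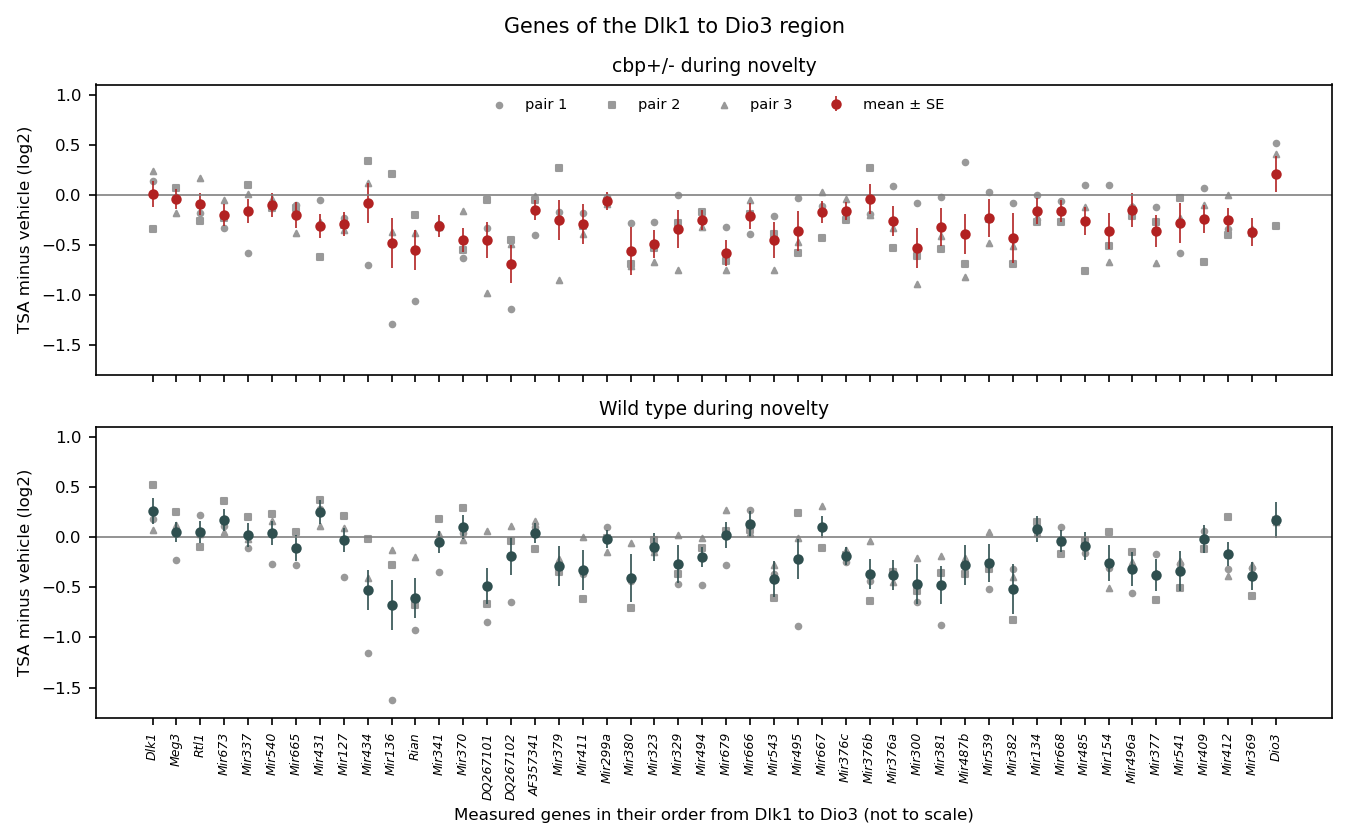
TSA minus vehicle (log2) during novelty for the 48 measured genes from Dlk1 to Dio3, in gene order and not to scale, in cbp+/- mice (upper panel) and wild-type mice (lower panel). Grey marks are the 3 pairs and coloured points the mean ± SE. In cbp+/- mice 46 of 48 means are below 0, all but those of the protein-coding ends Dlk1 (0.01) and Dio3 (0.21), and in wild type 34 of 48.

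All 40 microRNA genes of the region had a negative change in cbp+/- mice during novelty (median -0.27). Among the 251 other microRNA genes 185 had one (73.7%, median -0.05). In wild type during novelty the counts were 31 of 40 (median -0.21) and 83 of 251 (33.1%, median 0.04). In cbp+/- mice in the cage they were 34 of 40 (median -0.09) and 122 of 251 (48.6%, median 0.00). Without TSA replicate 3 the count in cbp+/- mice during novelty was 39 of 40, and without TSA replicate 2 it was 40 of 40. At the ends of the region Dlk1 differed by 0.01 ± 0.13, Meg3 by -0.04 ± 0.10 and Dio3 by 0.21 ± 0.18.

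Markers of other cell types were set beside these results. The mean level of 10 choroid plexus markers was 5.29, 5.93 and 5.07 on the TSA arrays, against 5.40, 5.14 and 5.09 on the vehicle arrays. Ttr, the most abundant of them, measured 8.33, 11.47 and 7.68 with TSA, against 9.54, 6.96 and 7.55 with vehicle. TSA replicate 2 had the highest level and vehicle replicate 1 the next, and 0 of 10 markers had an unadjusted p under 0.05. A positive change was found for 9 of the 10 markers, and their mean difference was 0.22. The values given above without TSA replicate 2 leave that array out. For the other 14 marker lists, which include CA1 and CA3 neurons, interneurons, glia, endothelium, meninges, blood, thalamus and striatum, the difference of the mean level between TSA and vehicle arrays lay between -0.13 and 0.09. Blood had only 1 measured marker. In wild-type mice during novelty the choroid plexus mean was 6.91, 5.16 and 5.04 with TSA, against 5.70, 5.10 and 5.01 with vehicle. The mean difference there was 0.43, with the highest level in wild-type TSA replicate 1. What part these levels play in the gene differences was not tested.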

How the data were processed

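The values are log2 expression values of Affymetrix Mouse Gene 1.0 ST arrays as deposited by the authors, who used GeneSpring GX 11, per the labels' protocols, and RMA, per the submitters' processing notes. No build is named for the array annotation. Of 35556 transcript clusters, 21789 had 1 gene symbol in the platform table; the cluster with the highest mean was kept for 999 genes with several, which left 19938 genes. Groups and replicate numbers came from the sample titles.

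Differences were fitted with limma 3.58.1 in R 4.3.3 on 18 arrays (6 groups that share replicate numbers 1 to 3), with the replicate number as a block and 10 residual degrees of freedom. All p-values are two-sided; Benjamini and Hochberg's method adjusted them over all genes, with a threshold of 0.05. The numbers pair the samples: all 18 arrays correlated best with their own number, and the cbp+/- novelty pairs at 0.70, 0.57 and 0.70. The cage and housing comparisons used all 28 arrays in 10 groups without a block, since cage vehicle arrays carry other numbers. Replicates are separate pools per the labels. The number of arrays limits the precision.

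Named were the 12 genes of smallest p per direction with 1 sign in all 3 pairs, at most 3 genes from each list, and preset activity, chromatin and earlier-noted genes. Predicted genes without a proper name and clone names were left out. Further list members, the genes past 0.5 log2 and the Dlk1 to Dio3 genes were chosen after their values were seen. The comparison, its members and all lists were chosen with earlier results of these data known. The fits were tested on simulated data.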

Additional observations from a re-analysis of the deposited data

Results flagged for a closer look

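Bdnf and the CREB-family gene Atf1 had opposite signs in the pairs of the 2 genotypes during novelty. Bdnf had -0.13 ± 0.09 in cbp+/- mice, with all 3 pairs negative. In wild-type mice it had 0.09 ± 0.09, with pairs of 0.09, 0.00 and 0.17, so that its second pair barely differed. The difference between the genotypes was -0.21 ± 0.12 (limma unadjusted p = 0.091, adjusted p = 0.976). Atf1 had -0.24 ± 0.10 in cbp+/- mice, with pairs of -0.21, -0.39 and -0.13, and 0.17 ± 0.10 in wild-type mice, with pairs of 0.12, 0.02 and 0.35. Its difference was -0.41 ± 0.14 (limma unadjusted p = 0.0101, adjusted p = 0.976). Such opposite signs occurred in 676 of all genes (3.39%) and in 2 of the 96 named genes. Neither difference passed the correction.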

How the results depend on the processing

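The count of 0 called genes for TSA in cbp+/- mice during novelty became 4 with array quality weights and 4 with array set as a block over all 28 arrays (Plag1, L3mbtl3, Wipi1 and Ccne1 both times; sets known from earlier results of these data), 2 with an intensity trend (Plag1 and L3mbtl3), 1 with only the 12 novelty arrays and 1 with only the 6 compared arrays (Plag1). Leaving out arrays or replicate numbers gave 0 to 3, the 3 without replicate 3 (Plag1, Sox11 and the importin gene Kpna2) and without TSA replicate 3 (Plag1, Fgf9 and Kpna2), and 1 without TSA replicate 1 (L3mbtl3). With the replicate block left out the count stayed 0 and the genes at an unadjusted p under 0.05 were 254, against 1055 in the paired fit; all 28 arrays without a block gave 392. It also stayed 0 without dim genes, with quantile normalization repeated and with all transcript clusters. Plag1 ranged over 0.79 to 1.12 in these alternatives and L3mbtl3 over 0.55 to 0.84.

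For wild type during novelty the count of 0 became 32 with array set as a block, 3 with array weights, 1 with the trend, 1 with the 12 novelty arrays, and 0 to 3 with arrays left out. In the cage it became 1 with array set as a block (Fv1). The genotype and housing differences had 0 called genes in every alternative run. Quantile normalization repeated moved the unadjusted split in wild type to 907 higher and 1009 lower, against 1204 and 785, and that of the genotype difference to 408 and 388, against 246 and 637.

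Of 769 values of 41 single genes, 25 had the other sign, in 7 genes whose main change was between -0.13 and 0.00, and none in the 24 leading genes. Egr1 was -0.01 with quantile normalization repeated, and Crebbp 0.02 and Ep300 0.01 with array weights. With arrays left out Crebbp ranged over -0.17 to 0.19, Ep300 over -0.16 to 0.17, Egr1 over -0.10 to 0.12, Dusp1 over -0.49 to 0.08, Hdac2 over -0.26 to 0.12, Npas4 over -0.27 to 0.10 and Hdac3 over -0.05 to 0.05. The cause of these shifts was not tested. Sizes below about 0.22 log2 could not be told from 0 for a typical gene even before adjustment over all genes, which asks for larger ones.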

Other observations

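The 13767 transcript clusters without a single gene symbol held 0 called clusters for TSA in cbp+/- mice during novelty (limma, smallest adjusted p 0.864), with 598 at an unadjusted p under 0.05. The largest mean difference in the whole comparison was that of Ttr (1.15 ± 1.07), which rests on TSA replicate 2.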
